A study of Mus musculus with 14 samples.

Results

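Solute carriers are the membrane proteins, named with the prefix Slc and a family number, that move amino acids, ions, sugars, nucleotides, metals and vitamins across cell and organelle membranes. The genes described here were selected on their mean normalized count: a protein-coding gene with an Slc name was a member when it averaged 100 or more normalized counts over the 14 RNA-seq libraries of mouse regulatory T cells (Tregs). Of 369 such genes in the table, 166 in 43 families were members, 199 lay under the mean of 100 (92 of them with no read in any library), and Slc2a1, Slc2a3, Slc16a1 and Slc16a3 were left out by name. A normalized count is the number of reads of a gene divided by a size factor of its library. The rule reads names, so 3 members are not carriers: Slc9a3r1 (NHERF1, a scaffold protein), Slc4a1ap (kanadaptin) and Slc7a6os. The libraries fell into 4 groups of untreated Tregs, sorted as CD4+ FOXP3-YFP+ cells from pooled spleen and lymph nodes. miR-15/16 fl/fl Foxp3Cre mice gave 5 libraries of Tregs in which Cre deletes both miR-15/16 clusters (cKO), and miR-15/16 wt/wt Foxp3Cre mice gave 4 libraries of all Tregs (WT). Tregs of miR-15/16 wt/wt Foxp3Cre mice were also sorted by surface CD25, the IL-2 receptor α chain, into CD25lo (2 libraries) and CD25hi (3 libraries) cells. All 4 groups carry the Foxp3Cre allele, a Cre-YFP cassette at the X-linked Foxp3 locus, so Cre acts in FOXP3-expressing cells. The study's methods state age- and sex-matched mice of both sexes and give age ranges for all experiments together, but not the age behind each library.

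Amino acid carriers of the plasma membrane feed protein synthesis and mTORC1 signaling in lymphocytes, and several rise when T cells are activated. The CD98 heavy chain Slc3a2 pairs with light chains such as Slc7a5 to exchange large neutral amino acids, Slc1a5 and the Slc38 family carry glutamine, and Slc7a1 carries arginine. Bicarbonate and proton carriers hold the internal pH, the Slc25 family serves the inner mitochondrial membrane, the Slc35 family brings nucleotide sugars into the Golgi and endoplasmic reticulum, and the Slc30 and Slc39 families move zinc out of and into the cytosol.

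The deleted miRNAs share a seed, bases 2 to 8 of the mature strand, which pairs with sites in 3′ UTRs. Their mature sequences (RefSeq, GRCm38.p6) are shown with the seed in capitals:
miR-15a-5p: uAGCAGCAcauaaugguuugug
miR-15b-5p: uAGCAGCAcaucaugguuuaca
miR-16-5p: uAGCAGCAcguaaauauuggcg
The members called in the comparisons below whose longest annotated 3′ UTR holds a match to this seed are Slc4a7, Slc22a15, Slc35g1, Slc20a2 and Slc35d1. The matches are printed 5′ to 3′ on the strand of the gene, in GRCm38, with the paired letters in capitals, because they show which called members carry a site for the deleted miRNAs:
Slc4a7, chr14:14797886-14797915, plus strand: aagttcccattTGCTGCTAaatataaccct
Slc22a15, chr3:101860177-101860206, minus strand: ctggtgcctcaTGCTGCTAcccttcctcgg
Slc20a2, chr8:22569494-22569523, plus strand: aaccatggaaaTGCTGCTAatatttttata
Slc35g1, chr19:38403904-38403932, plus strand: aacgttgacaaTGCTGCTctagttagtac
Slc35d1, chr4:103172489-103172517, minus strand: gtggatgtagtTGCTGCTctttgtatccc
The first 3 are 8-mers and the last 2 are 7-mers. Slc22a15 holds 6 matches in all, 2 of which overlap, and Slc35d1 holds 2. The search read the strand of the gene only, for TGCTGCT, which pairs with bases 2 to 8, and for the overlapping form that pairs with bases 2 to 7 and ends in A, GCTGCTA (an 8-mer holds both). A match was found in the 3′ UTR of 57 of 166 members (34.3%), beside 29.5% of the 9794 protein-coding genes with a mean of 100 or more and 27.8% of the 12731 genes tested that have an annotated 3′ UTR. The median UTR length was 1464 bases over the members, 1231 bases over those abundant genes and 1140 bases over all those tested. A match describes letters in the annotation and is not evidence of binding.

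Libraries held 30055573 to 35226685 reads in genes (median 31942230). The 6 Treg markers summed to 174035 to 186674 normalized counts in cKO, 165136 to 188769 in WT, 137738 and 138344 in CD25lo, and 172489 to 182848 in CD25hi libraries; Il2ra, which encodes CD25, was lower in cKO (-0.75) and in CD25lo Tregs (-1.43), where it is the gene of the sort itself. Xist was present in every cKO library and in WT replicate 3, and the other WT and all CD25-sorted libraries had Ddx3y instead, so sex and genotype differ together in these libraries, although the methods describe sex-matched mice. WT replicate 4 stood apart from the other WT libraries: 22 immediate early and stress genes had a mean log2 level of 11.97 there and 13.6 to 13.9 in WT replicates 1 to 3, beside 12.5 to 13.8 in cKO, 11.9 and 12.4 in CD25lo, and 11.8 to 11.9 in CD25hi libraries. Of 12 myeloid markers, 0 passed limma-trend in either comparison, and 5 were lower in cKO Tregs at an unadjusted p under 0.05 and 0 higher. They summed to 1382 to 5985 normalized counts in cKO, 1861 to 9672 in WT, 1858 and 2313 in CD25lo and 1360 to 2204 in CD25hi libraries, and Spi1 and Cd14 were at 0 in WT replicate 4 and in all CD25-sorted libraries. The B cell markers summed to 994 to 1378 in cKO and 571 to 1535 in WT libraries, the CD8 T cell markers to 313 to 461 in cKO and 301 to 661 in WT libraries, and the NK cell markers to 134 to 261 in cKO and 261 to 508 in WT libraries. In each of these lists 0 genes passed the test in either comparison. Values below are listed in replicate order within a group, so the third WT value is the WT library with Xist and the fourth is WT replicate 4.

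Levels of different genes were compared per kb of the longest annotated transcript, as the mean normalized count over 14 libraries divided by that length. The members spanned 26.6 to 5507 per kb, with a median of 263, and the 10 highest made up 33.1% of the summed level per kb. Slc9a3r1, the scaffold, was highest at 5507 per kb. Substrate classes were assigned by family number, so a member can carry something other than its class names. The 3 members that are not carriers are counted in classes too. Among carriers, the highest of each substrate class were the choline-like transporter Slc44a2 (3809.8 per kb, vitamins and choline class), the glutamine carrier Slc1a5 (3588, amino acids), the mitochondrial phosphate carrier Slc25a3 (3369, mitochondrial carriers) and the sugar carrier Slc50a1 (1593, sugars and polyols). Next came the sodium-phosphate cotransporter Slc20a1 (1444 per kb, phosphate and carboxylates), the potassium-chloride cotransporter Slc12a7 (1166, bicarbonate, protons, chloride and calcium), the GDP-fucose carrier Slc35c1 (1051, nucleotide sugars) and the taurine carrier Slc6a6 (1028, neurotransmitters, taurine, creatine and peptides). The urea carrier Slc14a1 led the organic ions (869 per kb) and the magnesium carrier Slc41a1 led the metals (746 per kb). Slc12a7 is given here after its values were seen, as the first carrier of its class.

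At the edge of the rule, Slc6a8 (mean 105 normalized counts) and Slc11a1 (mean 107) were the lowest members, and Slc27a3 (96.2) and Slc29a2 (89.9) the highest of the genes left out. Slc4a1, the anion exchanger of red cells, had a read only in WT replicate 1 (86.4 normalized counts), Slc8a1 averaged 30.4, and the cystine carrier Slc7a11 averaged 0.91, so none of the 3 was a member. All 166 members passed the filter of the test, and 157 averaged 100 or more in each of the 4 groups. None of the members called below was among the other 9.

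The first comparison asks which solute carriers differ in Tregs that lack miR-15/16. Of 166 members, 5 were higher in cKO than in WT Tregs and 3 were lower (limma-trend on log2(normalized count + 1), Benjamini-Hochberg adjusted p under 0.05 over the 16241 genes tested). These are 3.01% and 1.81% of the members. Among all genes tested, 2.04% were called higher and 1.48% lower, and among the 9824 protein-coding genes with a mean of 100 or more, 2.98% higher and 2.37% lower. The share of members called was thus near that of like abundant genes. The median log2 fold change was 0.02 over the members, 0.00 over abundant protein-coding genes and 0.05 over all genes tested, and 142 of 166 members had a change under 0.5 in either direction. At an unadjusted p under 0.05, 30 members were higher (18.1%) and 7 lower (4.22%), beside 10.9% and 9.99% of abundant protein-coding genes and 9.57% and 6.56% of all genes tested. All 5 cKO libraries lay above all 4 WT libraries for 18 members (10.8%; 6.32% of abundant protein-coding genes) and below them for 6 (3.61%; 5.43%). The summed members took 0.916% to 0.942% of all normalized counts in cKO, against 0.877% to 0.890% in WT libraries, and 0.879% and 0.904% in CD25lo, against 0.876% to 0.903% in CD25hi libraries.

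The second comparison asks which carriers differ between the 2 CD25 gates of WT Tregs. Of the members, 2 were higher in CD25lo than in CD25hi Tregs (1.2%) and 5 were lower (3.01%). Among all genes tested, 0.61% were called higher and 1.01% lower, and among abundant protein-coding genes 0.886% higher and 1.56% lower. The median log2 fold change was -0.02 over the members and 0.00 over all genes tested. At an unadjusted p under 0.05, 15 members were higher (9.04%) and 17 lower (10.2%). Among abundant protein-coding genes these shares were 8.21% and 9.15%, and among all genes tested 6.51% and 6.95%. In all, 13 members were called in either comparison and 153 in neither, and 2 were called in both: Slc4a7, higher in both, and Slc22a5, lower in both. With 2 CD25lo against 3 CD25hi libraries, groups that do not overlap arise readily by chance. The share of all genes that did so was not counted, so separation of the CD25 groups below is a description only. The study calls its libraries biological replicates, but which animals or pools stand behind each is not named here, so the p-values measure the spread between these libraries.

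**Figure D1:**
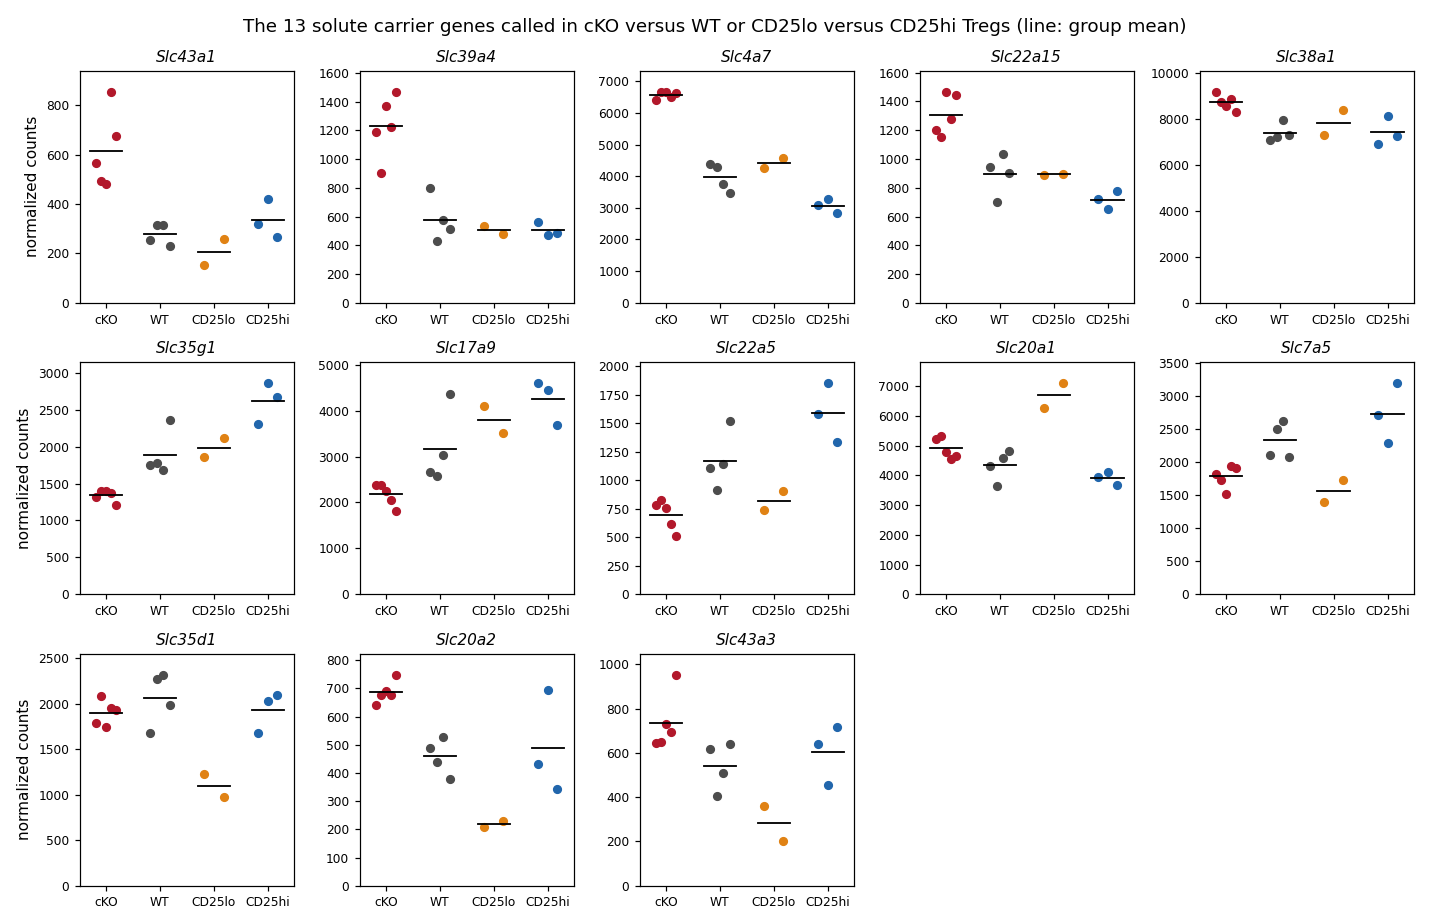
Normalized counts of the 13 solute carrier genes called in cKO versus WT or in CD25lo versus CD25hi Tregs, by group; points are libraries and lines are group means. The 5 cKO libraries of Slc4a7 sit between 6417 and 6663, above every library of the other groups, and the 2 CD25lo libraries of Slc20a1 lie above all other libraries.

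Slc4a7 (NBCn1), a sodium-bicarbonate cotransporter that loads the cell with base, had the smallest adjusted p of the members in the first comparison. Slc4a7 (chr14:14702279-14799940, GRCm38) was at 6417, 6663, 6647, 6493 and 6618 normalized counts in cKO Tregs, against 4391, 4283, 3742 and 3478 in WT Tregs (log2 fold change 0.73, SE 0.07, adjusted p = 1.56e-05). The groups did not overlap, and the cKO libraries spanned less than the WT libraries. It had 4249 and 4574 normalized counts in CD25lo, against 3085, 3273 and 2843 in CD25hi Tregs (log2 fold change 0.53, SE 0.10, adjusted p = 0.0116), and again the groups did not overlap. Without CD25lo replicate 2 this second call was lost (adjusted p = 0.128). When library sex entered the fit, which sets the cKO libraries against WT replicate 3, Slc4a7 stayed higher in cKO Tregs (log2 fold change 0.81, SE 0.12, adjusted p = 0.00789) and kept its call. The other 7 members called in the first comparison kept their direction in that fit and lost their calls (adjusted p 0.267 to 0.942). Their log2 fold changes were then 1.07 for Slc39a4, 0.93 for Slc43a1, 0.33 for Slc22a15, 0.14 for Slc38a1, -0.33 for Slc35g1, -0.74 for Slc22a5 and -0.49 for Slc17a9, with SEs of 0.10 to 0.39.

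In the rest of the bicarbonate, proton, chloride and calcium class (23 members), no other member was called in either comparison. In cKO minus WT, 16 of 23 had a positive change, with a class median of 0.11. Of 9824 abundant protein-coding genes, 4960 were positive, with a median of 0.00. Slc12a7, which exports potassium with chloride, was at 9555, 10750.1, 9078, 8131 and 7252 normalized counts in cKO, against 6773, 6441, 8038 and 7908 in WT Tregs (log2 fold change 0.29, SE 0.10, adjusted p = 0.153). It was at 10096 and 9384 in CD25lo, against 7728, 5879 and 7056 in CD25hi Tregs (log2 fold change 0.51, SE 0.14, adjusted p = 0.0844). Both CD25lo values lay above the CD25hi values, but the difference missed the threshold. Slc24a3, a sodium/calcium-potassium exchanger, had the greatest positive value in cKO minus WT among the members and was chosen after its values were seen. It was at 311, 433, 521, 220.0 and 356 normalized counts in cKO, against 130.2, 214, 67.1 and 23.6 in WT Tregs (log2 fold change 2.10, SE 0.68, adjusted p = 0.106). Every cKO value exceeded every WT value, and the WT values spread over 23.6 to 214. The high cKO values raised the mean that the rule used, and Slc24a3 averaged under 100 in both CD25-sorted groups. Its rank and this separation are therefore not independent of the rule. In CD25lo Tregs Slc24a3 was at 2.7 and 40.4, against 120.1, 75.4 and 46.4 in CD25hi Tregs (log2 fold change -2.62, SE 0.92, adjusted p = 0.19). Of the 8 Slc9 genes, sodium-proton exchangers and the scaffold Slc9a3r1, 6 were positive and 0 were called in cKO versus WT Tregs.

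Among the 18 members of the amino acid class, 2 were higher in cKO Tregs, Slc43a1 and Slc38a1, and 2 were lower in CD25lo Tregs, Slc7a5 and Slc43a3. Slc43a1 (LAT3), a carrier of large neutral amino acids that needs no heavy chain, had 568, 492, 483, 855 and 677 normalized counts in cKO, against 254, 314, 315 and 232 in WT Tregs (log2 fold change 1.12, SE 0.24, adjusted p = 0.011; chr2:84838850-84863594). No library of the groups overlapped. In CD25lo Tregs it was at 155 and 259, against 319.9, 421 and 265 in CD25hi Tregs (log2 fold change -0.71, SE 0.32, adjusted p = 0.331), the opposite sign but not past the threshold. Slc38a1 (SNAT1), a sodium-coupled glutamine carrier, was at 9167, 8721, 8563, 8856 and 8303 normalized counts in cKO, against 7056, 7218, 7936 and 7289.6 in WT Tregs (log2 fold change 0.24, SE 0.06, adjusted p = 0.045; chr15:96571418-96642913). The groups did not overlap, the change was small, and the call was lost when any one of 9 libraries was left out (adjusted p up to 0.123).

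Slc7a5 (LAT1), the light chain that imports leucine and other large neutral amino acids, was at 1403 and 1738 normalized counts in CD25lo, against 2716, 2296 and 3196 in CD25hi Tregs (log2 fold change -0.80, SE 0.15, adjusted p = 0.0118; chr8:121881150-121907694). It was at 1826, 1739, 1518, 1947 and 1918 in cKO, against 2103, 2505, 2629.9 and 2084 in WT Tregs (log2 fold change -0.38, SE 0.11, adjusted p = 0.075). In both comparisons the groups did not overlap, and only the CD25 comparison passed; its call was lost without CD25hi replicate 3 or CD25lo replicate 1 (adjusted p up to 0.12). Its partner Slc3a2, the CD98 heavy chain, was at 5082, 4705, 4927, 5872 and 6023 normalized counts in cKO, against 5439.6, 5067, 5132 and 3035 in WT Tregs (log2 fold change 0.22, SE 0.14, adjusted p = 0.47), and at 3329 and 2556 in CD25lo, against 3792, 3868 and 3374 in CD25hi Tregs (log2 fold change -0.33, SE 0.19, adjusted p = 0.468). Slc3a2 was therefore not called in either comparison, and the difference between the 2 chains was not tested. Slc1a5 (ASCT2), the major glutamine carrier, held a narrow range over all groups, with 9893, 8845, 10566, 9274 and 10303 in cKO, against 9757, 9842, 9436 and 10713 in WT Tregs (log2 fold change -0.03, SE 0.07, adjusted p = 0.908) and 10203 and 11484 in CD25lo, against 10464, 9510.5 and 10727 in CD25hi Tregs (log2 fold change 0.08, SE 0.09, adjusted p = 0.753). The arginine carrier Slc7a1 (log2 fold change -0.01, SE 0.09, adjusted p = 0.986 in cKO minus WT, and log2 fold change -0.11, SE 0.12, adjusted p = 0.75 in CD25lo minus CD25hi) and the y+LAT2 light chain Slc7a6 (log2 fold change -0.03, SE 0.09, adjusted p = 0.936, and log2 fold change 0.03, SE 0.13, adjusted p = 0.964) were not called either.

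Slc38a2 (SNAT2), a glutamine and neutral amino acid carrier known for induction under amino acid shortage and osmotic stress, was called in neither comparison and varied widely among the cKO and among the WT libraries. It was at 10134, 13204, 11405, 16796 and 16394 normalized counts in cKO, against 17643, 17918, 16436 and 7312 in WT Tregs (log2 fold change -0.07, SE 0.20, adjusted p = 0.921), and at 7721 and 7483 in CD25lo, against 7575, 6527 and 7566 in CD25hi Tregs (log2 fold change 0.08, SE 0.28, adjusted p = 0.951). WT replicate 4 was at the level of the CD25-sorted libraries, and cKO replicates 4 and 5 were at that of WT replicates 1 to 3. Those 22 immediate early genes, whose levels are given above, were high in those same WT libraries and in cKO replicates 4 and 5 (13.5 and 13.8) and low in WT replicate 4. Their part in the level of Slc38a2 was not tested.

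**Figure D2:**
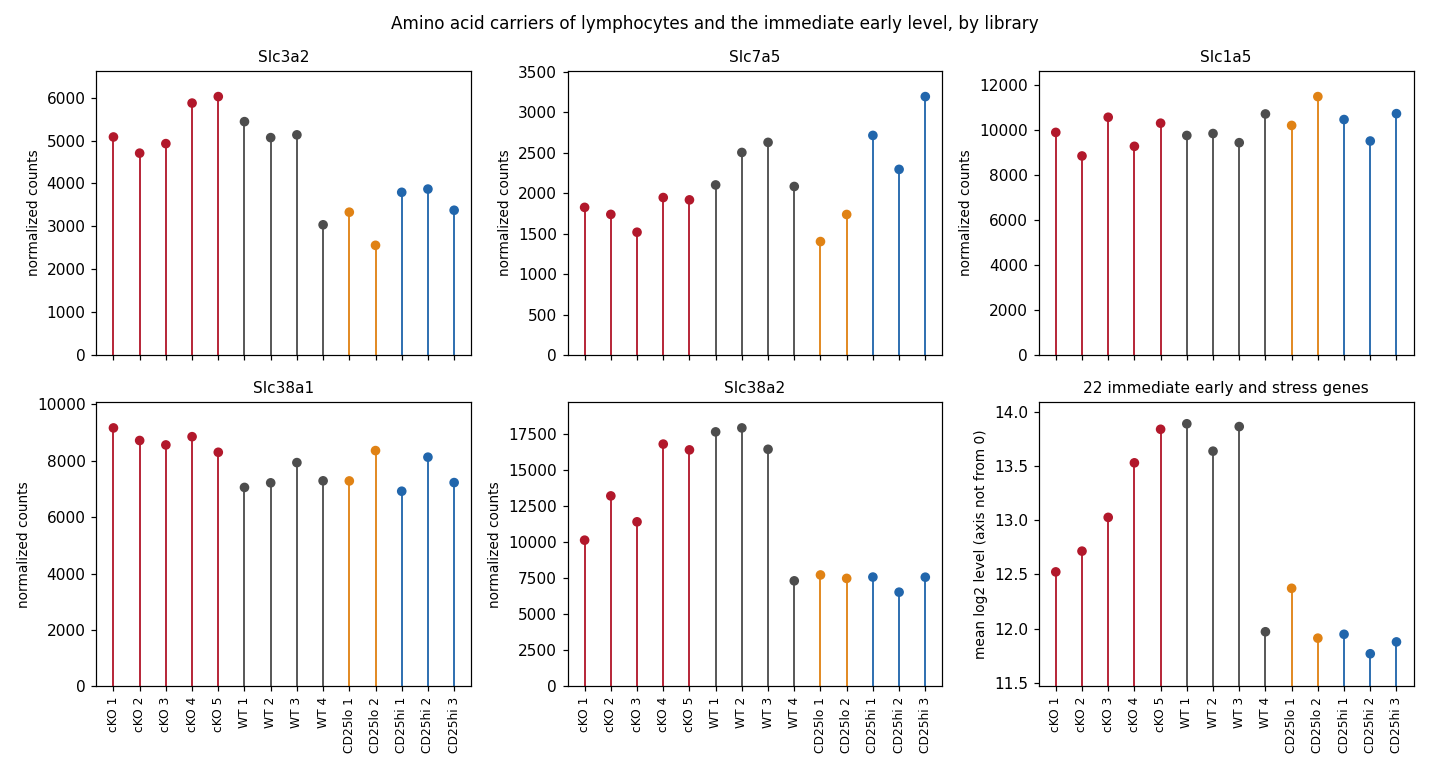
Normalized counts of 5 amino acid carriers, and the averaged log2 level of 22 immediate early genes, in each library, colored by group (cKO red, WT grey, CD25lo orange, CD25hi blue). Slc38a2 and the immediate early level are both low in WT replicate 4 and in the CD25-sorted libraries, while Slc1a5 stays between 8845 and 11484 in all 14 libraries.

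Slc43a3, placed in the amino acid class with Slc43a1 of the same family, carries purine nucleobases. It was at 360.1 and 203 normalized counts in CD25lo, against 639, 453 and 717 in CD25hi Tregs (log2 fold change -1.13, SE 0.28, adjusted p = 0.0489; chr2:84936579-84958509), and at 643, 647, 728, 693 and 952 in cKO, against 615, 404, 508 and 638 in WT Tregs (log2 fold change 0.44, SE 0.21, adjusted p = 0.297). Every CD25lo value lay under every CD25hi value. The CD25 call sat at the threshold: it was lost when any one of 10 libraries was left out (adjusted p up to 0.417) and with edgeR (adjusted p = 0.0694).

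The 25 members of the metal class include a family of zinc importers and a family of zinc exporters. Of 11 Slc39 genes, which bring zinc into the cytosol, 8 had a positive change in cKO minus WT and 1 was called. Of 6 Slc30 genes, which move zinc out of it, 0 were positive and 0 were called. The family medians were 0.11 and -0.09. Of 9824 abundant protein-coding genes, 4960 were positive, with a median of 0.00, and 2.98% were called higher and 2.37% lower. The difference between the Slc39 and Slc30 families was not tested. Slc39a4 (ZIP4), a zinc importer of the plasma membrane, was at 1187, 902, 1368, 1225 and 1468 normalized counts in cKO, against 797, 428, 578 and 511 in WT Tregs (log2 fold change 1.11, SE 0.18, adjusted p = 0.00145; chr15:76612385-76616852). Every cKO value lay above every WT value, and the call held in each of the 14 fits that left out 1 library. In CD25lo Tregs Slc39a4 was at 534 and 479, against 564, 475 and 483 in CD25hi Tregs, with overlapping values. Slc39a1 (ZIP1), chosen after its values were seen because it narrowly missed the threshold, was at 1080.4, 1286, 1313, 1255 and 1311 in cKO, against 733, 576, 906 and 1154 in WT Tregs (log2 fold change 0.61, SE 0.17, adjusted p = 0.0523), with WT replicate 4 the highest WT value. Without that library the log2 fold change of Slc39a1, cKO minus WT, was 0.78 (adjusted p = 0.00933), past the threshold. Leaving out the highest WT value necessarily raises this change, so that fit adds no support. The magnesium carrier Slc41a1 was at 3558, 3379.7, 4450.0, 3687 and 4219 in cKO, against 3340.4, 4818, 3315 and 3439.8 in WT Tregs (log2 fold change 0.06, SE 0.11, adjusted p = 0.85), and its CD25lo minus CD25hi value was -0.11 (SE 0.15).

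The iron exporter Slc40a1 (ferroportin) and the phagosomal metal carrier Slc11a1 (NRAMP1) are both known from macrophages. Slc40a1 was at 109, 45.6, 81.8, 931 and 254 normalized counts in cKO, against 1522, 531, 1074 and 80.2 in WT Tregs (log2 fold change -1.70, SE 0.94, adjusted p = 0.394), and at 33.6 and 424 in CD25lo, against 22.5, 78.4 and 182 in CD25hi Tregs (log2 fold change 0.80, SE 1.28, adjusted p = 0.84). Slc11a1 was at 32.2, 24.2, 30.2, 326 and 87.9 in cKO, against 359, 75.3, 304 and 34.9 in WT Tregs (log2 fold change -1.14, SE 1.1, adjusted p = 0.678), and at 46.4 and 141 in CD25lo, against 0, 0 and 36.7 in CD25hi Tregs. For both genes, WT replicates 1 and 3 and cKO replicate 4 were highest, and the groups overlapped in cKO versus WT. The 12 myeloid markers summed to 9672 and 6960 normalized counts in those WT libraries and to 5985 in cKO replicate 4, the 3 highest sums of the 14 libraries. Their part in the levels of Slc40a1 and Slc11a1 was not tested. Slc15a3, a lysosomal histidine and peptide carrier also known from macrophages, was at 194, 114, 287, 335 and 295 in cKO, against 327, 136, 364 and 175 in WT Tregs (log2 fold change -0.01, SE 0.38, adjusted p = 0.992), and at 94.6 and 80.7 in CD25lo, against 122, 151 and 186 in CD25hi Tregs.

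Of the 9 carriers of organic ions, bile acids and lipids, Slc22a5 was lower and Slc22a15 higher in cKO Tregs. Slc22a5 (OCTN2), the carnitine importer, was at 782, 822, 754, 614 and 512 normalized counts in cKO, against 1103, 913, 1146 and 1517 in WT Tregs (log2 fold change -0.74, SE 0.17, adjusted p = 0.0148; chr11:53864542-53891660). It was at 735 and 906 in CD25lo, against 1583, 1848 and 1329.9 in CD25hi Tregs (log2 fold change -0.95, SE 0.22, adjusted p = 0.0391). Neither pair of groups overlapped. WT replicate 4, low in immediate early genes, was the highest WT value of Slc22a5, and leaving it out gave -0.61 on the log2 scale (adjusted p = 0.045); without WT replicates 3 and 4 it was -0.55 (adjusted p = 0.147). The CD25 call was lost when any one of 8 libraries was left out (adjusted p up to 0.209). Slc22a15, a related carrier with 6 seed matches in its 3′ UTR, was at 1199.5, 1150.4, 1467, 1277 and 1442 normalized counts in cKO, against 946, 700.0, 1037 and 902 in WT Tregs (log2 fold change 0.55, SE 0.13, adjusted p = 0.0192; chr3:101855776-101924453), with no overlap; it was at 892 and 895 in CD25lo, against 719, 651 and 779 in CD25hi Tregs (log2 fold change 0.32, SE 0.17, adjusted p = 0.443). Its first call was lost without cKO replicate 3, cKO replicate 5 or WT replicate 2 (adjusted p up to 0.07). The urea carrier Slc14a1 was at 2544 and 2677 in CD25lo, against 3515, 2942 and 2968 in CD25hi Tregs (log2 fold change -0.26, SE 0.11, adjusted p = 0.291), and its cKO and WT values overlapped.

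The 2 sodium-phosphate cotransporters, Slc20a1 (PiT-1) and Slc20a2 (PiT-2), were called in opposite directions in the CD25 comparison. Slc20a1 was at 6280.3 and 7094 normalized counts in CD25lo, against 3944, 4129 and 3672 in CD25hi Tregs (log2 fold change 0.77, SE 0.11, adjusted p = 0.00136; chr2:129198764-129211616). Both CD25lo values lay above every other library, and the call held whichever library was left out. In cKO Tregs Slc20a1 was at 5230.5, 5313, 4798, 4565 and 4642, against 4325, 3653, 4574 and 4828 in WT Tregs (log2 fold change 0.18, SE 0.08, adjusted p = 0.283). Slc20a2 was at 209 and 228 normalized counts in CD25lo, against 433, 695 and 343 in CD25hi Tregs (log2 fold change -1.1, SE 0.26, adjusted p = 0.0386; chr8:22476788-22569612), a call lost when any one of 10 libraries was left out (adjusted p up to 0.152). It was at 641, 676, 690.1, 675 and 748 in cKO, against 490.4, 440.1, 529 and 379 in WT Tregs (log2 fold change 0.59, SE 0.19, adjusted p = 0.109), with every cKO value above every WT value. Slc17a9 (VNUT), which loads ATP into vesicles, belongs to the same class. It was at 2374, 2371, 2242, 2060.4 and 1825 normalized counts in cKO, against 2668, 2579, 3045 and 4354 in WT Tregs (log2 fold change -0.51, SE 0.13, adjusted p = 0.0332; chr2:180725263-180742280). WT replicate 4 was the highest WT value, near the 3505 to 4595 of the CD25-sorted libraries, and leaving it out gave -0.35 on the log2 scale (adjusted p = 0.0735). The call was also lost without WT replicate 3 or cKO replicate 3, 4 or 5, so in 5 of 14 such fits (adjusted p up to 0.0871).

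Of the 20 Slc35 genes, Slc35g1 was lower in cKO Tregs and Slc35d1 lower in CD25lo Tregs. Slc35d1, which carries UDP-glucuronic acid and UDP-N-acetylgalactosamine into the endoplasmic reticulum, was at 1227 and 971 normalized counts in CD25lo, against 1676, 2033 and 2097 in CD25hi Tregs (log2 fold change -0.82, SE 0.15, adjusted p = 0.00885; chr4:103170649-103215164), and at 1784, 2087, 1749, 1956 and 1929 in cKO, against 1678, 2267, 2318 and 1982 in WT Tregs (log2 fold change -0.11, SE 0.11, adjusted p = 0.703). The CD25 groups did not overlap, the cKO and WT groups did, and the call was lost without CD25lo replicate 2 (adjusted p = 0.15). Slc35g1, described in human cells as a partner of the calcium sensor STIM1, was at 1322, 1393, 1406, 1366 and 1210.3 normalized counts in cKO, against 1749, 1783, 1683 and 2357 in WT Tregs (log2 fold change -0.49, SE 0.11, adjusted p = 0.0119; chr19:38395980-38405607), with no overlap. It was at 1860.3 and 2112 in CD25lo, against 2301, 2857 and 2678 in CD25hi Tregs (log2 fold change -0.39, SE 0.14, adjusted p = 0.21). WT replicate 4 was the highest WT value again, and the call held without it (log2 fold change -0.38, adjusted p = 0.032). The GDP-fucose carrier Slc35c1, which supplies fucosylation in the Golgi, was called in neither comparison (log2 fold change 0.19, SE 0.08, adjusted p = 0.262 in cKO minus WT).

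None of the 36 Slc25 genes was called by limma-trend in either comparison. In cKO minus WT they ranged between -0.47 and 0.91 with a median of 0.06, and at an unadjusted p under 0.05, 2 were higher and 1 was lower. In CD25lo minus CD25hi they ranged between -0.57 and 0.87 with a median of 0.08. In this comparison 3 were higher and 1 lower at an unadjusted p under 0.05. Among abundant protein-coding genes, 10.9% were higher and 9.99% lower at that level in cKO versus WT Tregs. The shares were 8.21% and 9.15% in CD25lo versus CD25hi Tregs. Slc25a3, which brings phosphate into mitochondria for ATP synthesis, was at 15146, 14680.4, 14339, 18219.6 and 17084 normalized counts in cKO, against 15753, 15756, 15148 and 10797 in WT Tregs (log2 fold change 0.16, SE 0.10, adjusted p = 0.467), and at 10435 and 10259 in CD25lo, against 11589, 10638 and 10657 in CD25hi Tregs (log2 fold change -0.08, SE 0.13, adjusted p = 0.845). As with Slc38a2, WT replicate 4 was at the level of the CD25-sorted libraries. Slc25a25, a calcium-regulated ATP-Mg/phosphate carrier chosen after its values were seen, was likewise lowest among WT libraries in replicate 4, with 1642, 1483, 1469.7, 1875 and 1754 in cKO, against 1815, 1961, 1900.0 and 1103 in WT Tregs (log2 fold change -0.01, SE 0.20, adjusted p = 0.986).

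**Figure D3:**
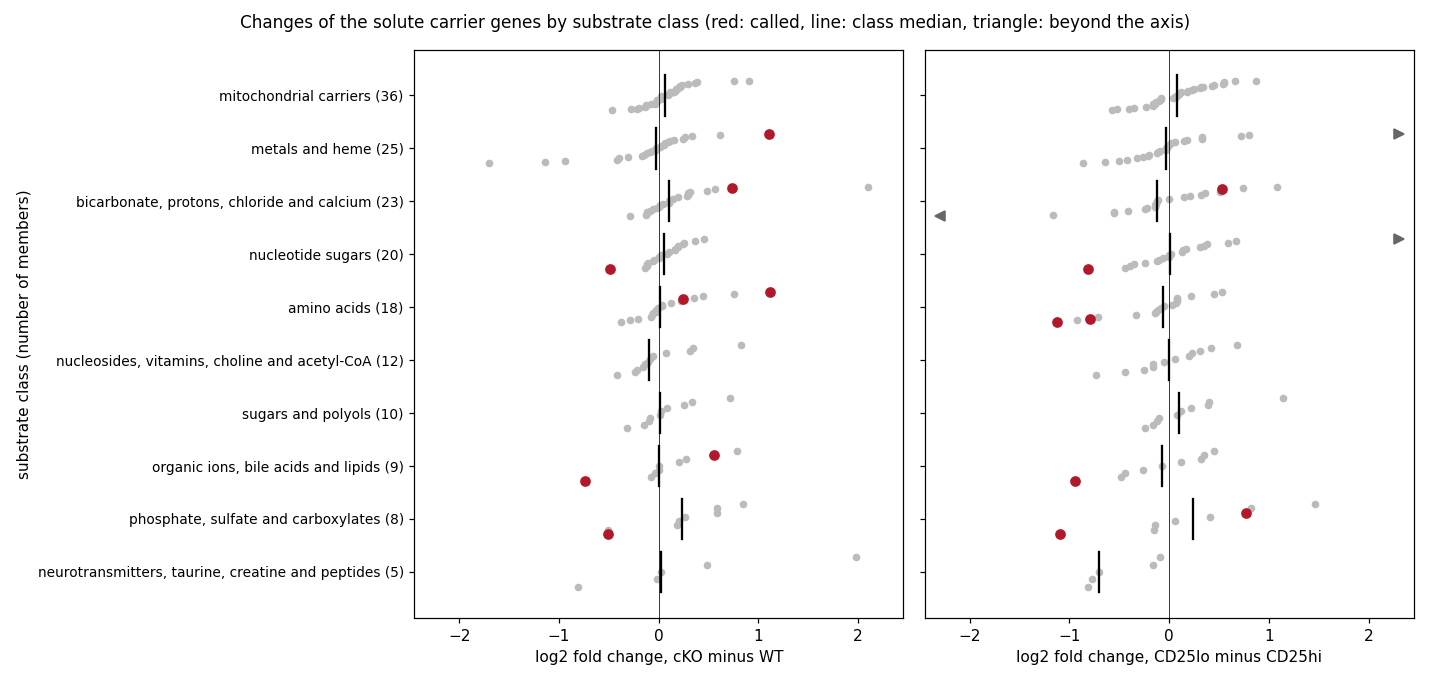
Log2 fold changes of the 166 members by substrate class in cKO minus WT (left) and CD25lo minus CD25hi (right); red points are called, vertical lines are class medians, and triangles lie beyond the axis. Class medians lie between -0.10 and 0.23 in cKO minus WT, and calls are spread over 6 of 10 classes there, with 0 calls among the 36 mitochondrial carriers.

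In the remaining classes no member was called by limma-trend in either comparison. At an unadjusted p under 0.05 in cKO versus WT Tregs, 2 of 12 members of the vitamin and choline class were higher and 0 lower, 2 of 10 sugar and polyol carriers higher and 1 lower, and 1 of 5 neurotransmitter, taurine, creatine and peptide carriers higher and 0 lower. The choline-like transporter Slc44a2 was at 14177, 15409.5, 14341, 14337 and 12422 normalized counts in cKO, against 13543, 14838, 14824 and 16768 in WT Tregs (log2 fold change -0.08, SE 0.07, adjusted p = 0.605), and differed by 0.05 (SE 0.09) in CD25lo minus CD25hi. The sugar carrier Slc50a1 was at 1858, 1822, 2108, 1704 and 1874 in cKO, against 1971, 2649, 2183 and 2559 in WT Tregs (log2 fold change -0.31, SE 0.10, adjusted p = 0.0874), with overlapping values. The taurine carrier Slc6a6 held 5561 to 7120 normalized counts over the 14 libraries (log2 fold change 0.02, SE 0.08, adjusted p = 0.949 in cKO minus WT). The creatine carrier Slc6a8, on the X chromosome, was at 125, 125, 142, 178 and 140.2 in cKO, against 62.5, 249, 105 and 0 in WT Tregs (log2 fold change 1.98, SE 1.07, adjusted p = 0.383); its WT values enclosed those of the cKO libraries, and with WT replicate 4 at 0 the fitted change depends on the pseudocount. Slc6a8 averaged 142 normalized counts in cKO, 104 in WT, 48.7 in CD25lo and 83.4 in CD25hi libraries. Its cKO values thus raised the mean that the rule used. Of the 8 X-linked members, 0 were called by limma-trend in either comparison. The sodium/myo-inositol carrier Slc5a3 and the endosomal proton exchanger Slc9a9, both chosen after their values were seen, had their lowest WT value in replicate 4 as well, at 1052 and 1549 normalized counts.

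Slc15a2 (PEPT2), a proton-coupled carrier of di- and tripeptides on chr16:36750178-36784962, was chosen after its values were seen because it was high or low within every group. It was at 1983, 31.6, 38, 1583 and 1761 normalized counts in cKO, against 1137, 663, 1334 and 177 in WT Tregs (log2 fold change -0.81, SE 1.25, adjusted p = 0.816), and at 960.2 and 93.9 in CD25lo, against 1463, 1367 and 58 in CD25hi Tregs (log2 fold change -0.70, SE 1.71, adjusted p = 0.91). The highest cKO library exceeded the lowest 62.8-fold, beside a median of 1.3-fold over the members and 20.4-fold for Slc40a1, the next member. The levels did not follow the groups, and in bulk libraries fewer cells that express a gene and less RNA per cell cannot be told apart. The nearest abundant genes on either side did not share the pattern: Ildr1 was at 764, 512, 654, 693 and 773 normalized counts and Iqcb1 at 324, 305, 231, 205 and 269 in the same 5 cKO libraries. Over 14 libraries and 10300 genes, the gene most like Slc15a2 on the log2 scale was Chchd3 (Pearson r = 0.79, a description), which spanned only 1470 to 1928 normalized counts.

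**Figure D4:**
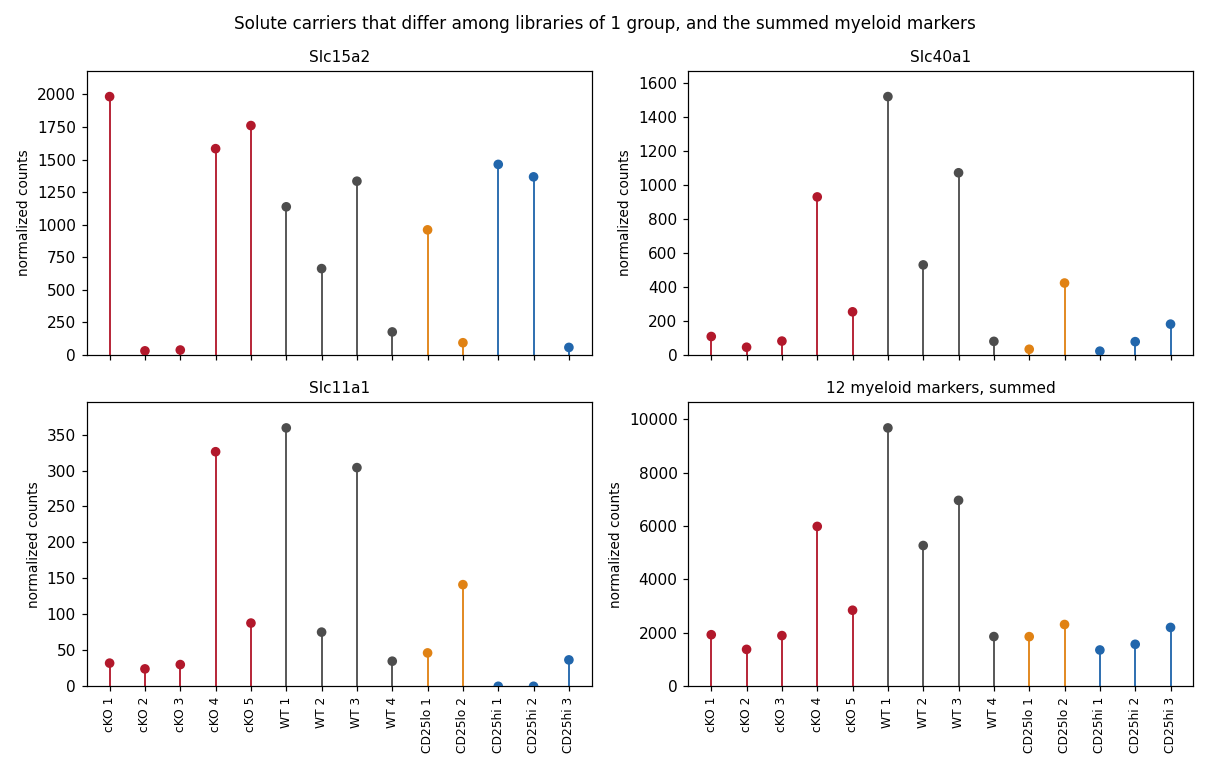
Normalized counts of Slc15a2, Slc40a1 and Slc11a1 and of 12 summed myeloid markers in each library, colored by group (cKO red, WT grey, CD25lo orange, CD25hi blue). Slc15a2 is under 100 in cKO replicates 2 and 3, CD25lo replicate 2 and CD25hi replicate 3, while the myeloid markers are highest in WT replicates 1 and 3 and cKO replicate 4.

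The 2 comparisons share no library, so the change of each member could be compared between them in the same fit. The changes differed for 4 of 166 members (2.41%; 1.03% of all genes tested and 1.65% of abundant protein-coding genes). The difference, cKO minus WT less CD25lo minus CD25hi, was positive for Slc43a1 (1.83, SE 0.40, adjusted p = 0.0346), Slc20a2 (1.69, SE 0.32, adjusted p = 0.0179) and Slc43a3 (1.57, SE 0.35, adjusted p = 0.0375). It was negative for Slc20a1 (-0.59, SE 0.14, adjusted p = 0.0476). For Slc43a1, Slc20a2 and Slc43a3 the cKO libraries were above the WT libraries and the CD25lo libraries under the CD25hi libraries, and Slc20a1 was higher in CD25lo Tregs by more than in cKO Tregs. The difference of Slc20a2 was lost in 2 of the 14 fits that left out 1 library, those without CD25lo replicate 1 or 2 (adjusted p up to 0.056), and those of Slc20a1, Slc43a1 and Slc43a3 were lost in 12, 9 and 8 of the 14 fits. All 4 differences were lost when library sex entered the limma-trend fit (adjusted p 0.221 to 0.317). They were also lost with a block for replicate number (adjusted p 0.101 to 0.217). For Slc4a7 and Slc22a5, called in the same direction in both comparisons, the differences were 0.21, SE 0.12, adjusted p = 0.49 and 0.20, SE 0.28, adjusted p = 0.806, and they missed the threshold.

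**Figure D5:**
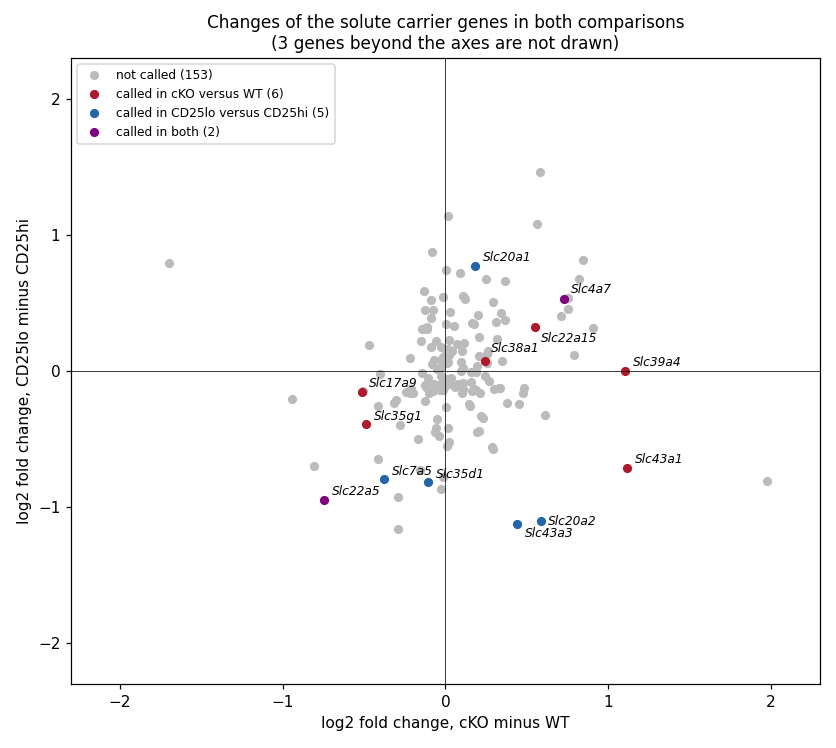
Log2 fold change of each member in cKO minus WT (x axis) and in CD25lo minus CD25hi (y axis), with called members named; 163 of 166 are drawn. Slc4a7 lies at the upper right (0.73 and 0.53), Slc22a5 at the lower left (-0.74 and -0.95), and Slc20a2, Slc43a1 and Slc43a3 lie at the lower right.

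Genes related to solute carriers were taken from lists that the rule did not use. Of 12 partner proteins of solute carriers, 1 was higher and 0 lower in cKO Tregs, and 1 was higher and 1 lower in CD25lo Tregs. Emb (embigin), an ancillary chain of monocarboxylate carriers, was higher in both. It was at 7212, 6849.6, 6413, 7574 and 7172 normalized counts in cKO, against 4868, 5579, 5707 and 3769 in WT Tregs (log2 fold change 0.52, SE 0.10, adjusted p = 0.00742). It was at 6202 and 5196 in CD25lo, against 3498, 3141 and 3654 in CD25hi Tregs (log2 fold change 0.73, SE 0.14, adjusted p = 0.0116). Neither pair of groups overlapped. Bsg (basigin), in the same list, was called in neither comparison (log2 fold changes -0.06 and 0.08). Ahcyl2, a regulator of sodium-bicarbonate cotransporters, was at 5736 and 5542 in CD25lo, against 10233, 11164 and 10413 in CD25hi Tregs (log2 fold change -0.91, SE 0.09, adjusted p = 4.36e-05). A further list held 45 other membrane transporters (channels, pumps, ABC carriers and carriers without an Slc name). Of these, 2 were higher and 0 lower in cKO Tregs, Abcb1a (0.61) and the potassium channel Kcna3 (0.47). In CD25lo Tregs 1 was higher and 0 lower, the calcium channel subunit Orai2 (0.43). Of 21 genes of the ATF4 response, which includes amino acid carriers in many cells, 0 were higher and 1 lower in cKO Tregs and 0 higher and 2 lower in CD25lo Tregs, with medians of -0.12 and -0.16. Of 27 genes of lysosomal amino acid sensing, 1 was higher and 1 lower in cKO Tregs and 0 higher and 1 lower in CD25lo Tregs; Rragd was the gene lower in both (-0.65 and -1.01). Of 17 genes of iron and metal handling, 0 were called by limma-trend in either comparison, with 1 higher and 2 lower in cKO and 0 higher and 3 lower in CD25lo Tregs at an unadjusted p under 0.05. The lists' medians stood beside 0.05 and 0.00 over all genes tested. Among all genes tested, 2.04% were called higher and 1.48% lower in cKO Tregs, and 0.61% higher and 1.01% lower in CD25lo Tregs. At an unadjusted p under 0.05, these shares were 9.57% and 6.56% in cKO Tregs, and 6.51% and 6.95% in CD25lo Tregs.

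Members were also set apart by the seed of the deleted miRNAs, as a description. Of the 57 members with a match, 2 were higher and 1 lower in cKO Tregs (median log2 fold change 0.02), and of the 109 without, 3 were higher and 2 lower (median 0.03). These are 3.51% and 1.75% of the members with a match, and 2.75% and 1.83% of those without. Over all genes tested with a 3′ UTR, 4.67% of the 3536 with a match were called higher and 1.58% lower (median 0.06), and 1.59% of the 9195 without were called higher and 1.91% lower (median 0.01).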

How the data were processed

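RNA-seq libraries of sorted mouse Tregs (5 cKO, 4 WT, 2 CD25lo and 3 CD25hi) were grouped by their labels. Per the labels and methods, the authors aligned single-end reads of 50 bases with STAR 2.7.2b to Ensembl GRCm38 release 78. The authors deposited a signal per gene and library, reads scaled by DESeq2 1.24.0 size factors and rounded to 0.1 (normalized counts). The counting tool and its strand setting are not given in the sources used here, so reads of overlapping or antisense genes cannot be separated. The authors' stabilized values (14 columns) and their own fold changes and p-values were not used.

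Members, lists and named genes were chosen with earlier results of these data known. Named were all called members, the highest member per kb in each of 10 classes, 9 lymphocyte amino acid carriers, 4 genes at the mean of 100, and 5 known from other cells; genes beyond this were chosen after their values were seen. In the main test, limma-trend (R 4.3.3, limma 3.58.1) fitted 4 group means to log2(normalized count + 1) over 14 libraries, keeping genes that reached 10 normalized counts in 2 or more libraries; calls needed an adjusted p under 0.05 (Benjamini-Hochberg, all genes tested). The added count of 1 shrinks fold changes of low genes. Because log2 values are averaged, a library at 0 can instead enlarge them relative to the ratio of group means, as for Slc6a8. Multiplied by the size factors, at least 99.998% of values gave whole reads (within 0.055 normalized counts), which served edgeR 4.0.16, DESeq2 1.42.0 and limma-voom as alternatives. Other alternatives were 2 other filters on low values, pseudocounts of 0.5 and 5, a fit of the compared groups alone, a block for replicate number, library sex or immediate early level as a term, and each library left out. The method was also run on simulated counts, drawn independently for each library. These held neither the sex difference between cKO and WT libraries nor the shift of WT replicate 4, so no support is drawn from them. Transcript lengths and 3′ UTRs came from GENCODE M21 (GRCm38), and 147 of 166 members had the same coordinates there as in the table. Depth was even (30055573 to 35226685 reads in genes).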

Additional observations from a re-analysis of the deposited data

Results flagged for a closer look

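In 10 of 74 sets of libraries (cKO or WT values of 37 members), 1 library lay far from the others by Dixon's ratio, the gap to the nearest library divided by the range. Chance flags about 1 in 20 independent groups, a rate that does not carry over here, since 7 of the members were chosen after their values were seen, some for this pattern, and all share the same libraries. Without those 7 it was 8 of 60 sets. WT replicate 4 was the library apart in 5 of the 10 sets. It was lowest for Slc38a2 (7312 normalized counts, other WT libraries 16436 to 17918, ratio 0.860), Slc25a3 (10797, others 15148 to 15756, ratio 0.877), Slc3a2 (3035, others 5067 to 5440, ratio 0.845) and Slc25a25 (1103, others 1815 to 1961, ratio 0.83). It was highest for Slc35g1 (2357, others 1683 to 1783, ratio 0.852).

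The remaining 5 sets had other libraries apart. cKO replicate 4 was highest for Slc11a1 (326 normalized counts, others 24.2 to 87.9, ratio 0.789) and Slc40a1 (931, others 45.6 to 254, ratio 0.764). WT replicate 2 was highest for Slc41a1 (4818, others 3315 to 3440, ratio 0.917), cKO replicate 5 was highest for Slc43a3 (952, others 643 to 728, ratio 0.726), and cKO replicate 1 was lowest for Slc39a1 (1080.4, others 1255 to 1313, ratio 0.752).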

How the results depend on the processing

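No called change of a member reversed under any alternative run; of 2102 values of the 37 named members under alternatives, 140 lost and 24 gained a call, and 78 changed sign without being called in either fit. The cause of these changes was not tested. The counts of members called (5 higher and 3 lower in cKO, 2 higher and 5 lower in CD25lo Tregs, 4 differences) were 10, 6, 5, 6 and 7 with DESeq2. With limma-voom 3 members were lower in CD25lo Tregs and 1 differed, and the same counts were 3 and 1 with no filter on low values. With only the groups compared, which leaves 5 libraries in the CD25 fit, 0 and 0 were called there; the difference needs all 4 groups and has no such fit. With library sex as a term, 1 and 0 were called in cKO, 3 were lower in CD25lo Tregs and 0 differed. With the immediate early level as a term, 12 were higher in cKO Tregs, 6 higher in CD25lo Tregs and 8 differed. Without both WT replicate 3 and WT replicate 4, an alternative chosen after seeing the data, 0 were lower in cKO Tregs, 5 were higher in CD25lo Tregs and 2 differed.

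With single libraries left out, the counts ranged over 3 to 7, 2 to 4, 1 to 4, 1 to 6 and 1 to 5. Same-numbered libraries did not deviate together (r = -0.41 to -0.08 for cKO and WT, -0.05 and 0.17 for CD25lo and CD25hi), so in these 2 comparisons, the second with 2 pairs, the numbers were not taken to pair the libraries (WT was not checked against the CD25-sorted libraries); with the replicate block the 5 counts, in the order above, were 2, 1, 2, 0 and 0. Library depth was even, and the 2 CD25lo libraries limit the precision of the CD25 comparison.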
